A study of Mus musculus with 9 samples.

Results

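Apolipoproteins are the protein coats with which enterocytes pack dietary fat into lipoprotein particles, and 10 genes of this pathway were followed here in mouse intestinal organoids. They were the apolipoprotein genes Apoa1, Apoa4, Apoc2, Apoc3 and Apob, the lipid transfer gene Mttp, the fatty acid binding protein genes Fabp1 and Fabp2, the triglyceride synthesis gene Dgat1 and the transcription factor gene Creb3l3. All 10 were matched by symbol among 54838 gene identifiers, and all 10 passed the filter on low values described below. The set was put together because Apoa4 and Apoc3 were low with Nec-1, so the values with Nec-1 are given as a description and were not tested. Organoids came from small intestinal crypts of C57BL/6 Vil-CreERT2;Mettl3 fl/fl mice, aged 2 to 4 months. Every group carried both alleles. The villin promoter drives the inducible Cre recombinase in the intestinal epithelium, and 4-hydroxytamoxifen (4-OHT) activates it to delete the floxed part of Mettl3, which encodes an RNA methyltransferase. Organoids received ethanol (EtOH) or 0.5 µM 4-OHT for 2 days, and the solvent DMSO or necrostatin-1 (Nec-1), an inhibitor of the kinase RIPK1, for 5 days. For imaged organoids Nec-1 was given as 5 µM in the figure legends and as 10 µM in the methods. Neither states the dose for the sequenced organoids. The RNA-seq data held 2 EtOH DMSO libraries, 2 EtOH Nec-1 libraries, 2 4-OHT DMSO libraries and 1 library that received 4-OHT with Nec-1 (4-OHT Nec-1). No group without Cre received 4-OHT, so the agent and the deletion cannot be told apart.

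In the small intestine, absorbed fatty acids are carried through the enterocyte by fatty acid binding proteins and joined into triglyceride at the endoplasmic reticulum. The transfer protein encoded by Mttp loads this lipid onto the scaffold protein APOB, and the particle leaves as a chylomicron that also carries APOA1, APOA4 and the APOC proteins. CREB3L3 is a membrane-bound transcription factor that is cut free and switches on several of these genes.

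Expression was given as FPKM, fragments scaled to transcript length and to the mapped total, so levels of different genes can be set beside each other per length. FPKM summed to 450207 to 498712 per library, and 11559 to 12038 genes reached 1 FPKM. The depth behind a single value is unknown, since no fragment counts were used. By the spacing of the lowest values, libraries had 0.853 to 1.03 times the depth of the first control library. Differences are on the scale of log2(FPKM + 1), which understates changes of genes near 1 FPKM. Where groups held 2 libraries they were compared with limma over 12702 genes that reached 1 FPKM in 2 or more libraries, and a gene was called at an adjusted p under 0.05. Nothing in the labels says that libraries of a group came from separate cultures or animals, so these p-values measure only the spread between the libraries. The libraries labelled 4-OHT did not have less Mettl3 RNA. Its level was 2.70 and 2.71 FPKM in EtOH DMSO, 2.41 and 2.47 FPKM in EtOH Nec-1, 3.72 and 4.14 FPKM in 4-OHT DMSO and 3.36 FPKM in 4-OHT Nec-1. The gene-level value does not separate the floxed part from the rest of the transcript, and groups are therefore named by their labels.

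Of the 10 genes, 3 lie side by side on chromosome 9 of the mouse genome (build GRCm38.p6, from the RefSeq gene table). Apoa1 spans chr9:46228630-46230469, Apoc3 spans chr9:46233050-46235636 and Apoa4 spans chr9:46240844-46243458. The intervals between them are 2580 and 5207 bases, and the 3 genes together take 14829 bases. Apoa5, the next gene, spans chr9:46268608-46271921 and was close to silent here, with 0.0879 to 0.139 FPKM. The other genes have separate positions: Apoc2 on chromosome 7, Apob on 12, Mttp and Fabp2 on 3, Fabp1 on 6, Dgat1 on 15 and Creb3l3 on 10.

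RefSeq promoter windows were at hand for 8 of the 10 genes. The 250 bases before the start site are shown for Apoa1, Apoa4 and Apoc2, which were low together with Nec-1, and for Fabp1, which was highest in the library that received both agents. Each is written 5′ to 3′ on the strand of its gene, and capitals mark matches on either strand to 6 short motifs named below. Apoa1 is at chr9:46228380-46228629 on the plus strand, Apoa4 at chr9:46240594-46240843 on the plus strand, Apoc2 at chr7:19677942-19678191 on the minus strand and Fabp1 at chr6:71199629-71199878 on the plus strand.
Apoa1: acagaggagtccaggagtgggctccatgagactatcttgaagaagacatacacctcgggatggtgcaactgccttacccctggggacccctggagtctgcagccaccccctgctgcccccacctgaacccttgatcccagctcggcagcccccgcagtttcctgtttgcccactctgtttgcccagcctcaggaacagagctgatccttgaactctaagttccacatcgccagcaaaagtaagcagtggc
Apoa4: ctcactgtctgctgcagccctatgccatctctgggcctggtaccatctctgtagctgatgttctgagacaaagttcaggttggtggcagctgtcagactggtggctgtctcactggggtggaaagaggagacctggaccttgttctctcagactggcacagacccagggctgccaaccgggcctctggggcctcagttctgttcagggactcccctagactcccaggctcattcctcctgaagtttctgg
Apoc2: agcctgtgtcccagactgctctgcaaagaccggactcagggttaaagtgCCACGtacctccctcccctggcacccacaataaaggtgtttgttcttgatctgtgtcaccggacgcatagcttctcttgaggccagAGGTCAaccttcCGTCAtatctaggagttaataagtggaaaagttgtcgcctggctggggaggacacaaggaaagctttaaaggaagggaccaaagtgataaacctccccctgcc
Fabp1: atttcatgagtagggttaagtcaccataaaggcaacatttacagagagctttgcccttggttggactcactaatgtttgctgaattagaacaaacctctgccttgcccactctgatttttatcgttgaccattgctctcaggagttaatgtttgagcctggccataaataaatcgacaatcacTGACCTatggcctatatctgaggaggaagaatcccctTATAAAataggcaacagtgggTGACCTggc

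The motifs searched, on both strands, were AAAGTCC (core of a site of the nuclear receptor HNF4), AGGTCA (common core of sites of nuclear receptors), TGACG (core of cyclic AMP response elements), CCACG (part of elements bound by CREB3L3 and related factors), AGATAA (bound by factors of the GATA family) and TATAAA (the box of many start sites). In the Apoc2 window, CCACG begins 201 bases before the start site, AGGTCA 115 bases before it and CGTCA, the reverse complement of TGACG, 103 bases before it. The Fabp1 window holds TGACCT, the reverse complement of AGGTCA, at 67 and at 9 bases before the start site, and TATAAA at 30 bases before it. None of the 6 motifs was found in the Apoa1 and Apoa4 windows, which says only that these letters are not there. None of the matches in these windows overlapped another. These letters are common: over 32851 promoter windows of the same length, AAAGTCC was found in 3.58%, AGGTCA in 14.0%, TGACG in 17.8%, CCACG in 28.3%, AGATAA in 9.99% and TATAAA in 12.4%. A match is a description of the sequence and not a bound site.

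In control organoids (EtOH DMSO) the cytosolic fatty acid carriers and Apoa1 led the set. Fabp1 had the highest level, with 449 ± 31.4 FPKM (SD, n = 2), followed by Apoa1 with 191 ± 11.4 and Fabp2 with 180.3 ± 27.9. Mttp (100.4 ± 1.44 FPKM), Apoa4 (94.4 ± 2.57) and Dgat1 (63.7 ± 5.35) came next. Apoc3 (20.5 ± 3.14 FPKM), Apoc2 (16.7 ± 3.99), Creb3l3 (13.4 ± 0.236) and Apob (13.3 ± 2.16) were lowest. In this order the libraries of 3 neighbouring pairs overlapped, Apoa1 with Fabp2, Apoc3 with Apoc2 and Creb3l3 with Apob. All other neighbours were apart in both libraries. The 10 genes together summed to 1201 and 1085 FPKM in EtOH DMSO, to 853 and 835 FPKM in EtOH Nec-1, to 1048 and 1099.7 FPKM in 4-OHT DMSO and to 1222 FPKM in 4-OHT Nec-1. The 2 EtOH Nec-1 libraries had the lowest sums and the 4-OHT Nec-1 library the highest.

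**Figure D1:**
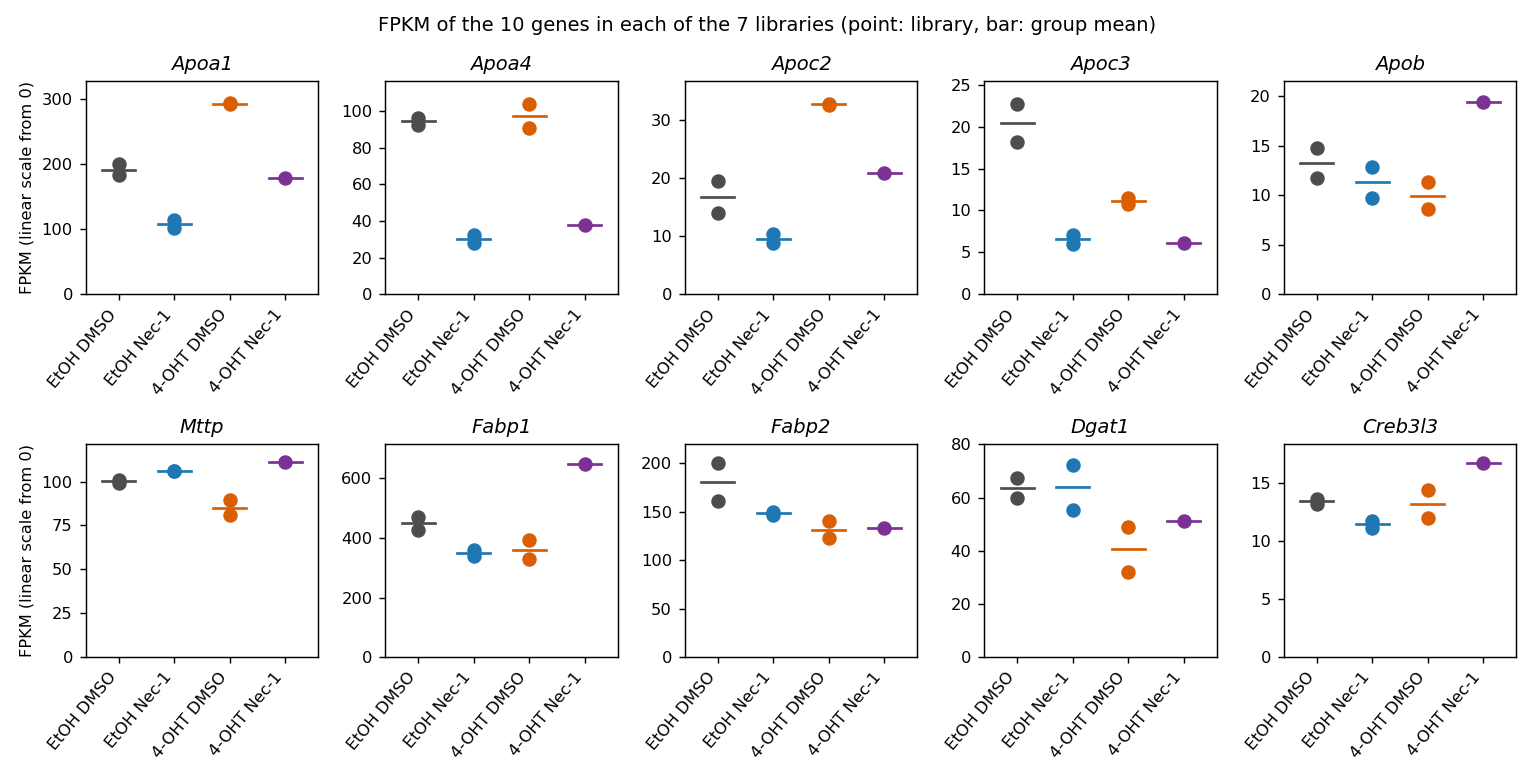
FPKM of the 10 genes in each of the 7 libraries, on linear axes that start at 0, with 1 point per library and a bar at the group mean. Apoa4 and Apoc3 sit lowest in the Nec-1 libraries, Apoa1 and Apoc2 sit highest in 4-OHT DMSO, and Fabp1 and Apob are highest in the 4-OHT Nec-1 library.

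The first comparison asked how the organoids labelled 4-OHT differed from EtOH organoids when both received DMSO. The genes for exchangeable apolipoproteins, those that move between particles, went in different directions. Apoa1 and Apoc2 were higher in 4-OHT DMSO, Apoc3 was lower, and Apoa4 showed no call. Fabp2 was lower by a smaller margin. In all, 4 of 10 genes were called, 2 higher and 2 lower, where 41.2% of all genes tested were called, 24.5% higher and 16.7% lower. Counted without a test, 6 genes were below and 2 above the control in every library, where 30.8% of all genes were below and 40.7% above. The share of called genes was thus near that of all genes. This comparison did not choose the genes, but it shares the EtOH DMSO libraries with the comparison that did.

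Apoa1 encodes the main structural protein of high density lipoprotein, which the intestine also secretes on chylomicrons. It had 199 and 183 FPKM in EtOH DMSO and 293 and 291 FPKM in 4-OHT DMSO. Both 4-OHT DMSO libraries lay above both controls, and the mean was 1.53 times as high (log2 difference 0.61, SE 0.09, limma adjusted p = 0.00548). Apoc2, whose protein activates lipoprotein lipase, had 19.5 and 13.9 FPKM in EtOH DMSO against 32.7 and 32.5 FPKM in 4-OHT DMSO. The controls differed more from each other than the 4-OHT DMSO libraries did, and the groups did not overlap. The Apoc2 difference was 0.95 (SE 0.17, limma adjusted p = 0.00917), a ratio of the means of 1.95. Apoc2 shares part of its span with the gene model Gm44805, which was at 0 in 5 libraries and at 0.883 and 0.000771 FPKM in 4-OHT DMSO, so reads that the 2 models share could be split between them.

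Apoc3, whose protein inhibits lipoprotein lipase and slows the clearance of triglyceride-rich particles, went the other way. Its level was 22.7 and 18.2 FPKM in EtOH DMSO and 11.5 and 10.8 FPKM in 4-OHT DMSO, without overlap. The log2 difference was -0.82 (SE 0.14, limma adjusted p = 0.00755), and the mean was 45.6% lower. Apoa4, which encodes a chylomicron apolipoprotein made in the small intestine and linked to satiety, had 96.2 and 92.6 FPKM in EtOH DMSO and 104 and 90.7 FPKM in 4-OHT DMSO. The groups overlapped, with a log2 difference of 0.04 (SE 0.11, limma adjusted p = 0.788). The sign of the Apoa4 difference turned to -0.12 with median centring or upper quartile scaling and to -0.06 without the first 4-OHT DMSO library. So the 3 neighbours on chromosome 9 were higher, lower and not called in the same libraries. Among the genes on either side, chosen by position after values had been seen, Pafah1b2, a subunit of platelet-activating factor acetylhydrolase, was higher in 4-OHT DMSO (0.60, SE 0.08, limma adjusted p = 0.00439), while Sidt2, Sik3, Zpr1 and Bud13 were not called.

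Fabp2 and Fabp1 encode the intestinal and the liver-type fatty acid binding protein, both abundant in enterocytes. Fabp2 had 200.0 and 161 FPKM in EtOH DMSO and 140.0 and 123 FPKM in 4-OHT DMSO. It was lower in both 4-OHT DMSO libraries, by 0.45 on the log2 scale (difference -0.45, SE 0.13, limma adjusted p = 0.0418). This call was the least stable of the 4: over 15 alternatives its adjusted p in limma ran from 0.0207 to 0.125, and it was under 0.05 in 8. Fabp2 shares part of its span with the lncRNA model 4933405D12Rik, which was at 0 to 0.144 FPKM. Without the first EtOH DMSO library the difference was -0.29, and without the second 4-OHT DMSO library -0.35, neither of them called, and the call was also lost when either EtOH Nec-1 library was left out of the fit. The Fabp1 level was 471 and 427 FPKM against 328 and 394 FPKM, with both 4-OHT DMSO libraries below both controls and no call (-0.32, SE 0.12, limma adjusted p = 0.0829). With the first 4-OHT DMSO library left out the Fabp1 difference was -0.19.

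The genes that build the particle were not called. Dgat1, which catalyses the last step of triglyceride synthesis, had 67.5 and 59.9 FPKM in EtOH DMSO and 32.1 and 49.0 FPKM in 4-OHT DMSO (-0.67, SE 0.23, limma adjusted p = 0.0665). Mttp had 99.4 and 101 FPKM against 80.8 and 89.2 FPKM (-0.24, SE 0.08, limma adjusted p = 0.0642). Apob, the scaffold of the chylomicron, had 11.7 and 14.8 FPKM against 11.3 and 8.63 FPKM (-0.38, SE 0.20, limma adjusted p = 0.175). For these 3 genes each 4-OHT DMSO library lay below each control library, but no difference passed the test. Without the first 4-OHT DMSO library the Dgat1 difference was -0.37, and without the second it was -0.96. The Apob difference ranged from -0.56 to -0.20 when either library of 4-OHT DMSO or of EtOH DMSO was left out, and it was not called in any of these fits. Creb3l3 had 13.2 and 13.6 FPKM in EtOH DMSO and 14.4 and 12.0 FPKM in 4-OHT DMSO, so that the groups overlapped (-0.03, SE 0.11, limma adjusted p = 0.86). Its sign turned to 0.10 without the second 4-OHT DMSO library. The median difference over all genes was 0.077, and centring or upper quartile scaling moved it to -0.08 or -0.055. With either of these scalings Mttp, Fabp1 and Dgat1 also passed, so that 7 of the 10 genes were called, 2 higher and 5 lower. Without the second 4-OHT DMSO library Dgat1, Mttp (-0.31) and Fabp1 (-0.45) passed as well, with limma adjusted p of 0.0153, 0.0416 and 0.0296, and Fabp2 did not. Apoa1, Apoc2 and Apoc3 kept their call and direction in all 15 alternatives.

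**Figure D2:**
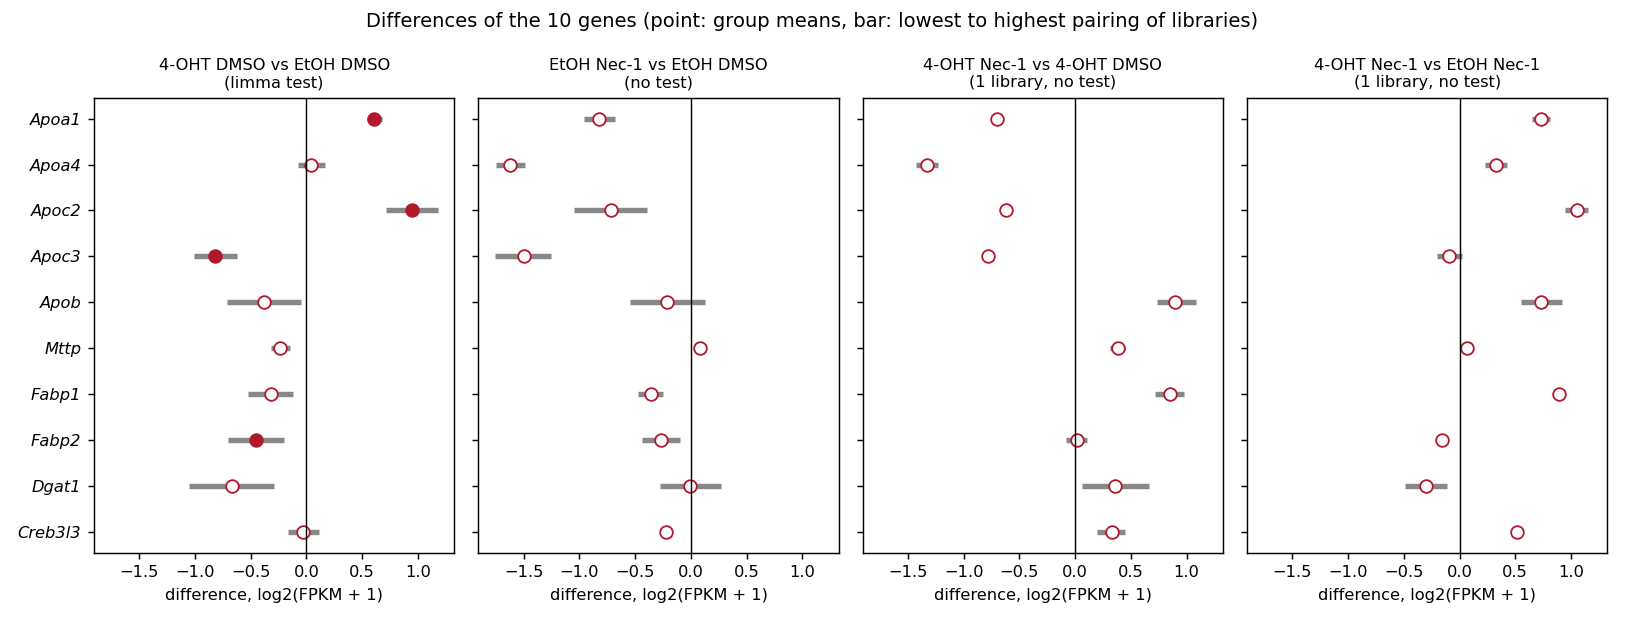
Differences of the 10 genes on the log2(FPKM + 1) scale in 4 comparisons, with a point at the difference of the group means and a grey bar from the lowest to the highest pairing of single libraries. Filled points passed limma at an adjusted p under 0.05, which was asked only in the first panel, where Apoa1 (0.61) and Apoc2 (0.95) lie to the right and Apoc3 (-0.82) and Fabp2 (-0.45) to the left.

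The markers of cell types were set beside these values, because organoids mix several kinds of epithelial cell, and in bulk RNA fewer cells of a type and less RNA per cell cannot be told apart. Of 13 enterocyte markers tested, 9 were lower and 3 higher in 4-OHT DMSO, with a median difference of -0.86. Their summed level was 884 to 919 FPKM in EtOH DMSO and 470.2 to 508 FPKM in 4-OHT DMSO. Sis, sucrase-isomaltase, fell by 1.37 on the log2 scale (limma adjusted p = 0.000699), while Anpep, Vil1 and Slc15a1 were the 3 that rose. The defining marker Lct was near 0 in every library, at 0.0092 to 0.383 FPKM. Among the secretory lists, 9 of 10 Paneth, 7 of 8 goblet and 9 of 9 enteroendocrine markers rose, and none fell. Paneth markers summed to 7812 to 8622 FPKM in EtOH DMSO and to 20798 to 20999.9 FPKM in 4-OHT DMSO. Stem cell markers fell in 3 of 8. Mesenchymal markers summed to at most 1.80 FPKM, and the tuft cell genes Gnat3 and Il25 were at 0. Of 7 tuft, 8 immune and 8 mesenchymal markers 2, 3 and 1 were tested, and 1 tuft marker and the immune list's Cd14 rose. Of 5 hepatocyte markers tested, Cps1, which the intestine also expresses, fell and no other was called. The part of these markers in the values of the fat handling genes was not tested. In the same libraries 6 of the 10 genes were below control in every library, 2 (Apoa1 and Apoc2) were above it and 2 overlapped. Of all genes tested, 30.8% were below and 40.7% above.

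With Nec-1 in EtOH organoids the 4 exchangeable apolipoproteins were all low, and the genes of fat uptake, synthesis and loading differed less from control. These values chose the genes and carry no test. Apoa4 had 32.2 and 27.9 FPKM in EtOH Nec-1 against 96.2 and 92.6 FPKM in EtOH DMSO, which is 68.1% lower (log2 difference -1.62). Apoc3 had 7.11 and 6.01 FPKM against 22.7 and 18.2 FPKM, which is 67.9% lower (-1.50). Apoa1 had 114 and 102 FPKM, 43.6% below control (-0.82), and Apoc2 had 10.3 and 8.87 FPKM, 42.4% below control (-0.72). In each of these genes both Nec-1 libraries lay below both control libraries. In the same comparison, Fabp1 (339.6 and 359 FPKM, difference -0.36), Fabp2 (147 and 149.6 FPKM, -0.27) and Creb3l3 (11.7 and 11.1 FPKM, -0.22) were also below control in every library. The Fabp2 difference was -0.11 without the first and -0.43 without the second EtOH DMSO library. Apob, with 12.9 and 9.77 FPKM, and Dgat1, with 72.3 and 55.3 FPKM, overlapped with control. Mttp was 106 FPKM in both Nec-1 libraries, just above the control values (0.08).

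In this comparison 7 of the 10 genes were below control in every library, 1 was above and 2 overlapped, where 39.1% of all genes tested were below and 10.5% above. The median over the 10 genes was -0.32 and over all genes -0.094. A difference of at least 1 log2 unit below each control library was shown by Apoa4 and Apoc3 and by 0.142% of all genes. Apoa1 (-0.82) was the gene nearest to them outside that limit. Limma called 0.22% of all genes. All 8 stem cell markers were below control in both Nec-1 libraries, with a summed level of 69.2 to 69.4 FPKM against 94.1 to 94.2. Enterocyte markers summed to 847 to 858 FPKM against 884 to 919, but went both ways gene by gene. Of 13 tested, 4 were below and 5 above control in both Nec-1 libraries, with a median difference of 0.03. The part of these markers in the apolipoprotein values was not tested.

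In 4-OHT organoids Nec-1 was represented by 1 library, so these differences have no replicate check. The exchangeable apolipoproteins were again low, while Fabp1, Apob, Mttp, Dgat1 and Creb3l3 were above the 4-OHT DMSO libraries. Apoa4 had 38.0 FPKM in 4-OHT Nec-1 against 104 and 90.7 FPKM in 4-OHT DMSO (-1.33, 61.0% lower). Apoc3 had 6.08 FPKM against 11.5 and 10.8 FPKM (-0.78), Apoa1 179 FPKM against 293 and 291 FPKM (-0.70), and Apoc2 20.9 FPKM against 32.7 and 32.5 FPKM (-0.62). On the other side, Fabp1 had 647 FPKM against 328 and 394 FPKM, a difference of 0.85. Apob had 19.4 FPKM against 11.3 and 8.63 FPKM (0.90), which was its highest level in the study. Mttp with 111 FPKM (0.38), Dgat1 with 51.3 FPKM (0.36) and Creb3l3 with 16.7 FPKM (0.33) were also above both 4-OHT DMSO libraries, and Fabp2 with 133 FPKM lay between them. With the first 4-OHT DMSO library left out the Dgat1 difference was 0.06 and with the second left out 0.66, and the Creb3l3 difference was 0.45 and 0.20. Thus 4 genes were below and 5 above, where 50.6% of 12036 genes were below and 24.5% above. Apoa4 was the only one of the 10 at least 1 log2 unit below each 4-OHT DMSO library, as were 1.21% of all genes, and none was that far above, against 0.764% of all genes. The enterocyte marker sum was 531 FPKM in this library, against 470.2 to 508 FPKM in 4-OHT DMSO. Of 13 enterocyte markers tested, 9 were above and 3 below both 4-OHT DMSO libraries, with a median difference of 0.37. Values above 4-OHT DMSO were thus not particular to the genes followed here. The sums of Paneth, goblet, enteroendocrine and stem cell markers were lower than in 4-OHT DMSO. Paneth markers summed to 15571 FPKM against 20798 to 20999.9, and goblet markers to 2878 against 3285 to 3841. Enteroendocrine markers summed to 862 FPKM against 926 to 1062, and stem cell markers to 53.2 against 60.9 to 87.9. The part of these markers in the values of the 10 genes was not tested.

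The same library can be set against EtOH Nec-1, where both groups received Nec-1 and no DMSO library enters. The set was picked for low Apoa4 and Apoc3 values with Nec-1, so these libraries are not free of that choice. Values above EtOH Nec-1 may in part restate it. Apoc2 (1.05), Fabp1 (0.89), Apoa1 (0.73), Apob (0.73), Creb3l3 (0.52), Apoa4 (0.33) and Mttp (0.07) were above both EtOH Nec-1 libraries. Fabp2 (-0.16) and Dgat1 (-0.30) were below both, and Apoc3 overlapped (-0.09). So 7 genes were above and 2 below, where 49.9% of 11746 genes were above and 38.8% below, and the median over all genes was 0.067, close to the Mttp value. None of the 10 was at least 1 log2 unit above or below each EtOH Nec-1 library, as 4.24% and 1.94% of all genes were. Apoa1 and Apoc2 were above EtOH in the libraries labelled 4-OHT both with DMSO and with Nec-1. Apoc3 was lower with 4-OHT in DMSO, and with Nec-1 it had 6.01 to 7.11 FPKM in all 3 libraries. The difference between these effects was not tested.

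Ratios within a library do not depend on its scaling, and they describe the mixture of exchangeable apolipoproteins. Each gene-to-gene ratio below has Apoa4 or Apoc3 on top, the genes picked because they were low with Nec-1. Low ratios in the Nec-1 libraries therefore restate that choice in part and are no separate result. The Apoa1 share given last counts both picked genes in its total, so high shares in the Nec-1 libraries restate the choice as well. The ratio of Apoa4 to Apoa1 was 0.483 and 0.506 in EtOH DMSO against 0.284 and 0.274 in EtOH Nec-1. It was 0.355 and 0.312 in the 4-OHT DMSO libraries and 0.212 in the 4-OHT Nec-1 library. The control libraries had the highest and the 4-OHT Nec-1 library the lowest value, with no overlap between groups. The ratio of Apoc3, the lipase inhibitor, to Apoc2, the lipase activator, was 1.16 and 1.32 in EtOH DMSO. The EtOH Nec-1 libraries had 0.688 and 0.677, the 4-OHT DMSO libraries 0.352 and 0.331 and the 4-OHT Nec-1 library 0.291. Apoc3 was thus above Apoc2 in both control libraries and below it in the other 5. Apoc3 was 0.0996 to 0.114 of Apoa1 in the control libraries and 0.0340 to 0.0626 of it in the other libraries. Apoa1 made up 59.0% and 59.5% of the summed FPKM of Apoa1, Apoa4, Apoc2 and Apoc3 in EtOH DMSO and 66.4% to 73.4% in the other libraries.

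**Figure D3:**
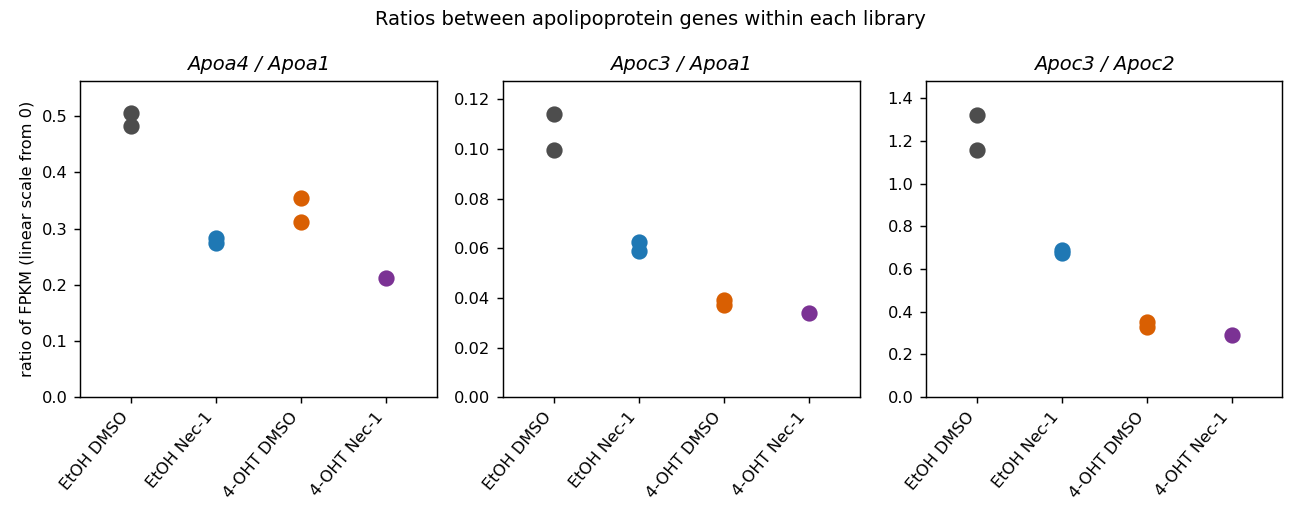
Ratios of FPKM between apolipoprotein genes in each of the 7 libraries, on linear axes that start at 0, with 1 point per library. All 3 ratios are highest in EtOH DMSO and lowest in 4-OHT Nec-1, and Apoc3 over Apoc2 ranges from 1.32 down to 0.291. Each has Apoa4 or Apoc3 on top, which were picked for low values with Nec-1.

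The rest of the fat handling pathway was read from 6 lists of 94 genes, none of them among the 10, of which 82 were tested. With 4-OHT, 32 were called, 15 higher and 17 lower, a share of 39.0% beside 41.2% of all genes. Of 4 other apolipoproteins tested, Clu and Apom were higher. Clu, which encodes the secreted chaperone clusterin, had 4.75 and 6.69 FPKM in EtOH DMSO and 46.4 and 24.6 FPKM in 4-OHT DMSO (2.39, SE 0.31, limma adjusted p = 0.00351), and 2.67, 2.19 and 9.28 FPKM in the 3 Nec-1 libraries. Apom, which encodes a carrier of the signalling lipid sphingosine phosphate, was higher by 0.58 at levels of 0.134 to 1.10 FPKM over all libraries.

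In triglyceride synthesis 4 of 16 genes were higher and 4 lower. Mogat2, the monoacylglycerol acyltransferase that starts resynthesis of absorbed fat, had 44.8 and 44.9 FPKM in EtOH DMSO and 25.0 and 26.7 FPKM in 4-OHT DMSO (-0.77, SE 0.08, limma adjusted p = 0.00163). Dbi, an acyl-CoA binding protein, and the acyl-CoA synthetases Acsl5 and Acsl1 were lower as well, at -0.69, -0.58 and -0.50. The glycerol-3-phosphate acyltransferase Gpat4 (0.88), the next enzyme Agpat2 (0.68), Acsl3 (0.58) and Dgat2 (0.40), which can make triglyceride beside Dgat1, were higher. Mogat2, of the monoacylglycerol route, and Gpat4 and Agpat2, of the glycerol phosphate route, went in opposite directions, and 8 genes of the list were not called.

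In lipoprotein assembly and export 2 of 13 genes were higher and 2 lower. Apobec1, the enzyme that edits Apob RNA so that the short form of the protein is made, had 1.27 and 1.40 FPKM in EtOH DMSO and 9.60 and 9.54 FPKM in 4-OHT DMSO (2.18, SE 0.14, limma adjusted p = 0.000521). It had 1.98 and 1.36 FPKM in EtOH Nec-1 and 6.92 FPKM in 4-OHT Nec-1, so that every library labelled 4-OHT lay above every EtOH library. Mia3, a cargo receptor for large secreted particles, was higher by 0.30. P4hb, the partner subunit of the protein encoded by Mttp, had 589.9 and 574 FPKM against 334 and 385 FPKM (-0.70, SE 0.10, limma adjusted p = 0.00445), and Sar1b, a GTPase of chylomicron export, fell by 0.60.

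Among 12 genes of lipid droplets and lipolysis, the lipase coactivator gene Abhd5 (0.93) and Lipa, for lysosomal acid lipase (0.70), were higher. G0s2, an inhibitor of triglyceride lipase (-1.02), Hilpda, a droplet protein (-0.57), and Lipe, hormone-sensitive lipase (-0.54), were lower. Uptake and sterol transport had 1 of 12 genes higher and 4 lower. Npc1l1, the sterol importer, fell from 62.7 and 74.3 FPKM to 21.6 and 26.7 FPKM (-1.47, SE 0.14, limma adjusted p = 0.00136). Slc27a2, an acyl-CoA synthetase and fatty acid transporter (-1.08), Soat1, which esterifies cholesterol (-0.59), and Scp2, a sterol carrier (-0.45), also fell, and the bile acid binding protein gene Fabp6 rose (1.41). Of 25 regulators, Creb3 (0.84), Mbtps2 (0.45), Nr1h4 (0.39) and Creb3l1 (0.38) were higher and Srebf2 (-0.71), Gata4 (-0.52), Mlxipl (-0.50) and Srebf1 (-0.31) lower. Mbtps2 encodes a protease that frees membrane-bound factors such as CREB3L3 and the SREBP proteins. Hnf4a, a nuclear receptor known to act on apolipoprotein genes, was not called (-0.22, SE 0.11, limma adjusted p = 0.149).

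**Figure D4:**
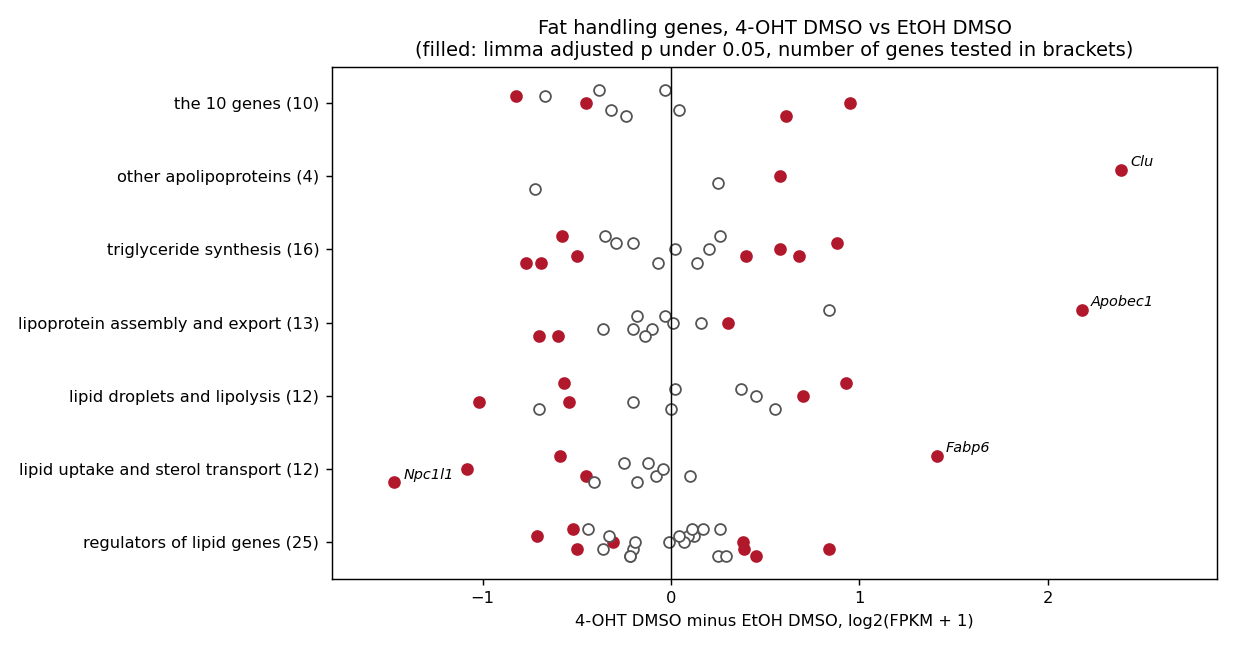
Differences between 4-OHT DMSO and EtOH DMSO, on the log2(FPKM + 1) scale, of the 10 genes and of the tested genes of 6 pathway lists, with 1 point per gene and vertical offsets only to keep points apart. Filled points passed limma at an adjusted p under 0.05; every list but the other apolipoproteins has filled points on both sides of 0, from Npc1l1 at -1.47 to Clu at 2.39.

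With Nec-1 in EtOH organoids limma called 0 of the 82 pathway genes, beside 0.22% of all genes. An unadjusted limma p under 0.05 was found for 16 of them (19.5%), beside 13.3% of all genes. Both Nec-1 libraries lay below both controls for 27 of the 82 (32.9%) and above them for 25 (30.5%), beside 39.1% and 10.5% of all genes. In 4-OHT organoids the Nec-1 library lay below both 4-OHT DMSO libraries for 21 (25.6%) and above them for 41 (50.0%), beside 50.6% and 24.5% of all genes. The genes of the sterol exporter of the enterocyte were above in both settings. Abcg5, which forms it together with Abcg8, had 13.2 and 13.6 FPKM in EtOH DMSO and 20.7 and 22.3 FPKM in EtOH Nec-1, then 15.4 and 13.6 FPKM in 4-OHT DMSO and 28.0 FPKM in 4-OHT Nec-1. Abcg8 went from 7.79 and 8.95 FPKM to 13.1 and 12.7 FPKM, and from 8.11 and 8.04 FPKM to 19.1 FPKM. The fatty acid receptor gene Cd36 was low throughout, with 0.613 to 0.742 FPKM in EtOH DMSO against 1.24 to 1.94 in EtOH Nec-1, and 0.240 to 0.289 for 4-OHT DMSO against 1.45 for 4-OHT Nec-1. These 3 genes were named after their values were seen.

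The genes whose pattern over the 7 libraries was most like that of Apoa4 were Gm47797 (Pearson's r = 0.974), 1190001M18Rik (0.964), 0610030E20Rik (0.953), Abl2 (0.949) and Jade1 (0.946), among 3814 genes that ranged over at least 1 log2 unit. For Apoc3 they were Jade1 (0.947), Ascl2 (0.938), Reg1 (0.915), Stmn1 (0.904) and Mir697 (0.880). Several of these genes were near the floor. Gm47797 had 0.103 to 2.08 FPKM, 1190001M18Rik 0.174 to 1.45 and Mir697 0 to 1.35. Abl2, Jade1 and Ascl2 reached at most 3.39, 3.44 and 2.70 FPKM, while 0610030E20Rik, Reg1 and Stmn1 were higher. Among the other genes followed here, Apoa1 (0.860), Apoc3 (0.846) and Apoc2 (0.719) had the highest correlation with Apoa4, and Mttp the lowest (-0.734). The 7 points come in 4 groups and share library scaling, and these values are a description. Apoa4 and Apoc3 were picked because both were low with Nec-1. Their likeness to each other, and to other genes low with Nec-1, restates that choice in part.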

How the data were processed

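Bulk RNA-seq of 7 libraries was analysed. The authors deposited a single FPKM for each Ensembl mouse gene in each library. The submitters' processing notes name HISAT2 2.1.0, StringTie 1.3.3b and build mm10, and the gene annotation is not given in the sources used here. FPKM are scaled by the authors for length and mapped fragments, so counts are not known and scaling by library size was not repeated. One table repeats 2 libraries of other tables, and 0 columns stayed unmapped. The CUT&Tag samples (2) were not analysed here. Of 54838 identifiers 54723 had a symbol.

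limma 3.58.1 (R 4.3.3) with a mean-variance trend was fitted on log2(FPKM + 1), pseudocount 1, with 1 mean per group over all 7 libraries and 3 residual degrees of freedom, two-sided, with Benjamini-Hochberg adjustment over 12702 genes. The single 4-OHT Nec-1 library was compared without a test, over genes that averaged 1 FPKM or more in the 3 libraries used. Python 3.11.15, numpy 2.4.6, pandas 2.3.3 and matplotlib 3.10.9 were used.

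The 10 genes, the 6 pathway lists and the 9 marker lists were chosen with earlier results of these data known, and counts over them are descriptions. One marker gene is not reported here and was left out of its list. Named beside the 10 genes are the called genes of each pathway list with the largest differences, up to 4 per direction, the 5 genes most like Apoa4 and like Apoc3, Mettl3, and defining markers. Sidt2, Pafah1b2, Sik3, Apoa5, Zpr1 and Bud13 were added by position, and Gm44805 and 4933405D12Rik by overlap. Hnf4a, Abcg5, Abcg8 and Cd36 were named after their values were seen. Positions and promoter windows are from RefSeq tables of GRCm38.p6. The alternatives were scaling by median or upper quartile, a fit without the trend, other pseudocounts, no filter or a stricter one on low values, a fit of 4 libraries only, a block for the replicate number, and each library left out in turn.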

Additional observations from a re-analysis of the deposited data

Results flagged for a closer look

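For some genes every library moved one way under one condition and the opposite way under the other. Whether the effects differ between the conditions was not tested, and the share of all genes with such a pattern was not counted. The same 4 groups enter both directions of comparison, and in each pair of values below the one with 4-OHT and Nec-1 together rests on the single 4-OHT Nec-1 library. All values are differences of log2(FPKM + 1).

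Among the 10 genes, Fabp1, the liver-type fatty acid binding protein, was lower with Nec-1 in EtOH organoids (-0.36) and higher with Nec-1 in 4-OHT organoids (0.85). Seen the other way, Fabp1 was lower with 4-OHT in DMSO (-0.32) and higher with 4-OHT in Nec-1 (0.89). Apob was -0.38 with 4-OHT in DMSO and 0.73 in Nec-1, and Mttp -0.24 and 0.07. The Mttp value of 0.07 was near the median of all genes in that comparison, 0.067. Creb3l3 was -0.22 with Nec-1 in EtOH organoids and 0.33 with Nec-1 in 4-OHT organoids.

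Among pathway genes, Fabp6, the ileal bile acid binding protein, had the widest swing, 1.46 with Nec-1 in EtOH organoids and -1.01 in 4-OHT organoids, and 1.41 with 4-OHT in DMSO and -1.06 in Nec-1. The Fabp6 level was 6.72 and 3.98 FPKM in EtOH DMSO against 17.4 and 14.9 FPKM in EtOH Nec-1, and 21.0 and 11.4 FPKM in 4-OHT DMSO against 7.21 FPKM in 4-OHT Nec-1. The acyl-CoA synthetase gene Acsl1 was -0.16 and 0.37 with Nec-1 in EtOH and 4-OHT organoids, and -0.50 and 0.03 with 4-OHT in DMSO and Nec-1. With Nec-1 in EtOH and then in 4-OHT organoids, Creb3 was 0.24 and -0.26, Gata4 -0.28 and 0.16, Mlxipl -0.37 and 0.12, and Slc27a2 -0.32 and 0.28. Soat1 was -0.59 with 4-OHT in DMSO and 0.05 in Nec-1. The values of 0.03 for Acsl1 and 0.05 for Soat1 were below the median of all genes in that comparison, 0.067.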

How the results depend on the processing

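Apoa1, Apoc2 and Apoc3 stayed called in the same direction under all 15 alternatives of the 4-OHT DMSO comparison. The 10 genes held 4 calls, 7 with median centring or with upper quartile scaling, and 3 to 6 with 1 library left out. The cause was not tested. Signs turned for Apoa4 (-0.12 with median centring, -0.12 with upper quartile scaling, -0.06 to 0.14 with 1 library left out) and for Creb3l3 (-0.15 to 0.10 with 1 library left out). Median centring changed the split of all calls from 3117 higher and 2120 lower to 2213 and 3187, and upper quartile scaling to 2232 and 2976. All genes called went from 5237 to 3628 without the first EtOH DMSO library. For EtOH Nec-1 against EtOH DMSO, 28 genes were called, 43 with upper quartile scaling, 8 without the filter on low values, 79 with only the 4 libraries of the comparison and 9 to 75 with 1 library left out, 75 without either 4-OHT DMSO library and 9 without the second EtOH Nec-1 library. Genes past 1 log2 unit in 4-OHT Nec-1 against 4-OHT DMSO numbered 238, 378 with pseudocount 0.1 and 421 to 772 with 1 DMSO library left out, the highest without the first. With 1 DMSO library left out, a gene had to pass the limit against the remaining DMSO library only, which loosens the rule. Against EtOH Nec-1 the genes past 1 log2 unit numbered 726, 1132 with pseudocount 0.1 and 433 with a mean of at least 5 FPKM. Same-numbered libraries did not deviate together (r from -0.040 to 0.0065 over genes). This shows no strong shared deviation, but it cannot tell whether same-numbered libraries shared a culture or an animal. With the replicate number as a block, 4697 genes, 4 of the 10 genes and 32 pathway genes were called with 4-OHT, and 19 genes and 0 pathway genes with Nec-1. Where a library was left out, the other library of its group was assumed to vary like the remaining groups. The group sizes limit the precision, and in 4-OHT Nec-1 there is no measure of spread.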
